A study of Mus musculus with 15 samples.

Results

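The blood-brain barrier was followed in mouse forebrain through 10 genes of the vessel wall: Cldn5, Ocln and Tjp1 of the tight junction, Cdh5 and Pecam1 of endothelial cell contacts, the transporters Slco1c1 and Abcb1a, the caveola protein Cav1, and the leukocyte adhesion molecules Icam1 and Vcam1. Every probe set annotated to one of these symbols alone was taken, which gave 15 of the 45037 probe sets on the array that are not controls. A probe set is a group of short oligonucleotides that together measure 1 transcript. A mean level high enough for testing was reached by 14 of the 15, and each of the 10 genes, out of 13168 tested, had at least 1.

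Endothelial cells of brain vessels are sealed to each other by tight junctions and carry few caveolae, the membrane pits that take up plasma proteins. With their transporters they form the blood-brain barrier, which decides what passes between blood and brain. Inflamed endothelium displays Icam1 and Vcam1, to which circulating leukocytes bind.

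Total forebrain RNA was hybridised to 15 Affymetrix arrays in 3 groups of 5. EPO-HI 11 to 15 received erythropoietin, a kidney hormone that makes red blood cells form, at 5 U per g into the peritoneum 1 h before hypoxic ischemia, in which the brain is deprived of both oxygen and blood supply. VEH-HI 6 to 10 received vehicle 1 h before hypoxic ischemia, and VEH-Sham 1 to 5 received vehicle 1 h before sham surgery. No group combined erythropoietin with sham surgery. The sources used here do not give strain, age, sex or the time of sampling after injury. Nothing in the labels says that the 5 samples of a group are separate animals, so the spread behind each p-value may be technical. Whole forebrain was sampled, so these genes were measured in a mixture of all its cells. Values are the deposited intensities, and differences are on the scale log2(intensity + 16), which understates the change of dim genes. Fold values are taken from these differences, so they are ratios of intensity + 16 and not of the intensities printed.

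The arrays fell into 2 sets that the labels do not record. Median intensities were 39.2 to 44.4 on the 10 hypoxic ischemia arrays and VEH-Sham 5, against 55.3 to 57.9 on VEH-Sham 1 to 4. Differences between an injured group and sham are therefore given with the difference from VEH-Sham 5 alone, the only sham array of the larger set, which has no replicate. EPO-HI and VEH-HI lie wholly within the larger set.

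Cav1, Icam1, Pecam1 and the brightest Vcam1 probe set were called higher in VEH-HI than in VEH-Sham. The tight junction, cadherin and transporter genes did not pass the test. Against VEH-Sham 5 alone, VEH-HI stayed higher by 1.25 for Icam1 and 0.97 for Cav1. The differences were 0.01 for Pecam1 and -0.11 for that Vcam1 probe set. The other Vcam1 probe sets differed by -0.08 and -0.28 from all sham arrays together. By brightest tested probe set, limma called 4 of the 10 genes higher in VEH-HI than VEH-Sham and 0 lower (adjusted p under 0.05). Of all tested probe sets 22.8% were called in this comparison (9.85% higher and 13% lower), and of all tested genes 11.9% were higher and 11.5% lower. The median difference of the 10 genes was 0.21, or 0.09 from VEH-Sham 5, beside -0.02 and 0.00 over all tested genes. Icam1 and Pecam1 averaged 4.84 and 5.10 in VEH-Sham, under the 5.46 needed for testing. Icam1 passed that filter through its levels on the injured arrays, and Pecam1 through those arrays and VEH-Sham 5 (6.49). On VEH-Sham 1 to 4 the brightest Vcam1 probe set averaged 8.17, beside 8.20 for the second brightest. It ranks as brightest through the injured arrays and VEH-Sham 5. The count of 4 is therefore given as a description. In bulk tissue, fewer cells of a type and less RNA per cell cannot be told apart.

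**Figure D1:**
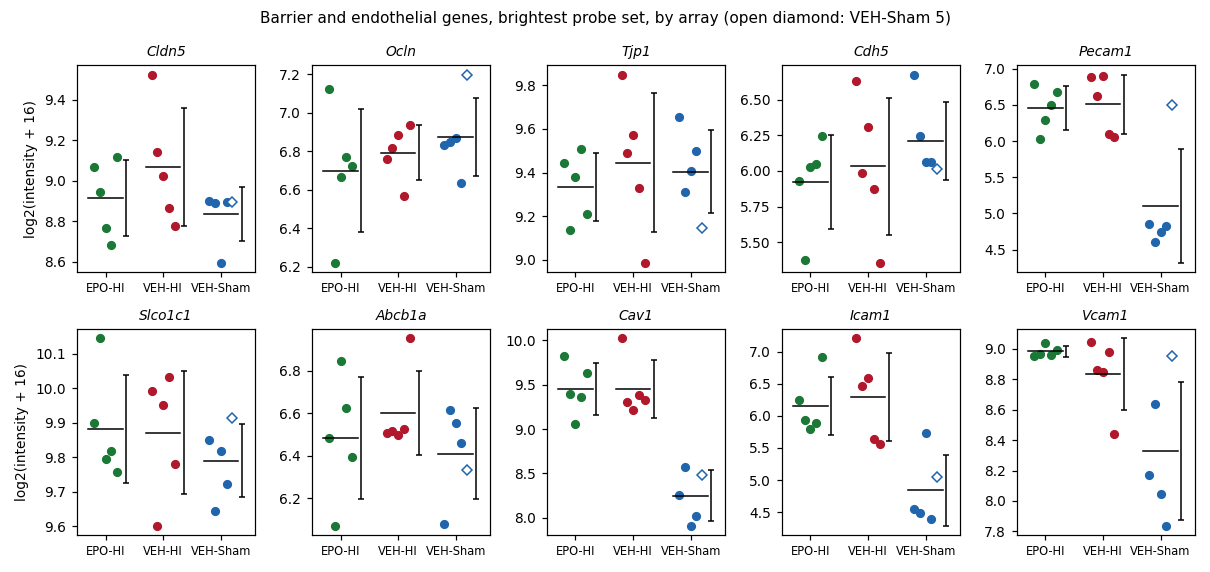
Intensity on the scale log2(intensity + 16), with a separate axis for each gene, of the brightest tested probe set of each of the 10 genes on every array, in EPO-HI, VEH-HI and VEH-Sham from left to right. Horizontal lines mark means, error bars the SD (n = 5) and open diamonds VEH-Sham 5; Cav1 averaged 9.45, 9.45 and 8.25 in the 3 groups with no overlap between injured and sham arrays, while Pecam1 on VEH-Sham 5 (6.49) lay among the injured arrays.

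Cldn5, the main sealing claudin of brain endothelium, had intensities of 720.7, 548.4, 505.3, 449.7 and 422.8 in VEH-HI, against 461.3, 457.9, 370.6, 459.9 and 459.6 in VEH-Sham. The 3 highest values were VEH-HI arrays, but VEH-HI 9 and 10 lay below 4 of the 5 sham arrays. The difference was 0.23 (SE 0.12, 95% interval -0.03 to 0.49, limma adjusted p = 0.179), and 0.17 from VEH-Sham 5. With array medians made equal it was 0.48 with a limma adjusted p of 0.0174, a setting that moved the median difference of all probe sets to 0.183, against -0.061 as reported.

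Ocln encodes occludin, a tight junction membrane protein, and had a pair of probe sets. On the brighter, intensities were 92.57, 96.6, 102.3, 78.92 and 106.4 in VEH-HI, against 97.86, 99.25, 101.0, 83.34 and 131.0 in VEH-Sham. The groups overlapped over most of their range, with a difference of -0.08 (SE 0.15, limma adjusted p = 0.718), and -0.41 from VEH-Sham 5. The dimmer probe set spanned 33.14 to 59.94 in VEH-HI and 57.37 to 67.4 in VEH-Sham, a difference of -0.29 (SE 0.16, limma adjusted p = 0.189), and -0.39 from VEH-Sham 5.

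Tjp1 encodes ZO-1, the scaffold that ties tight junction proteins to actin. Its intensities were 905.7, 702.1, 745.1, 627.1 and 491.9 in VEH-HI, against 790.4, 620.2, 662.4, 706.9 and 551.4 in VEH-Sham. VEH-HI held both the highest and the lowest value, and the difference was 0.04 (SE 0.13, 95% interval -0.23 to 0.31, limma adjusted p = 0.847). From VEH-Sham 5, the lowest sham array, it was 0.30.

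Cdh5, VE-cadherin, joins endothelial cells at adherens junctions. Its tested probe set read 83.32, 47.19, 63.28, 42.73 and 24.95 in VEH-HI, against 86.24, 59.93, 50.9, 50.82 and 48.67 in VEH-Sham, and the groups overlapped. The difference was -0.18 (SE 0.22, limma adjusted p = 0.57), and 0.02 from VEH-Sham 5. The second Cdh5 probe set was too dim to be tested, at 0.935 to 21.7 in VEH-HI and 13.1 to 28.9 in VEH-Sham.

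Pecam1, CD31, is an adhesion molecule at endothelial contacts that leukocytes and platelets carry as well. Its intensities were 101.7, 82.12, 102.8, 52.2 and 50.75 in VEH-HI, against 12.93, 8.371, 10.76 and 12.28 in VEH-Sham 1 to 4 and 74.1 in VEH-Sham 5. The split followed the array set: VEH-Sham 5 read like an injured array, and the other 4 sham arrays lay far below. Over all arrays Pecam1 rose by 1.40 (SE 0.29, 2.65-fold, limma adjusted p = 0.00297). From VEH-Sham 5 it differed by 0.01. VEH-Sham 5 itself exceeded VEH-Sham 1 to 4 by 1.74, a gap that 18 of the 27022 tested probe sets (0.0666%) reached. The constant added sets the size here too, at 2.13 with 1 and 0.72 with 64. For Pecam1 and the limma call, injury and array set cannot be told apart.

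Slco1c1, a thyroid hormone transporter enriched in brain endothelium, had intensities of 1002, 760.1, 974.4, 1030 and 863.7 in VEH-HI, against 907.6, 783.8, 887.3, 828.6 and 948.7 in VEH-Sham. The ranges overlapped, and the difference was 0.08 (SE 0.10, 95% interval -0.12 to 0.28, limma adjusted p = 0.575). From VEH-Sham 5 it was -0.04.

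Abcb1a encodes P-glycoprotein, the efflux pump that returns many drugs to the blood. Its brighter probe set read 75.0, 75.49, 74.4, 76.18 and 108.1 in VEH-HI, against 51.53, 82.19, 78.05, 72.11 and 64.6 in VEH-Sham. VEH-HI 10 stood above the other 4 VEH-HI arrays, which were nearly equal, and the difference was 0.19 (SE 0.15, limma adjusted p = 0.385). The second probe set differed by 0.26 (SE 0.14, limma adjusted p = 0.192). From VEH-Sham 5 the 2 probe sets differed by 0.27 and 0.26. With equal array medians both passed, at 0.44 and 0.51 (limma adjusted p = 0.0423 and 0.0181).

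Cav1 encodes caveolin-1, the coat protein of caveolae. Its intensities were 1026, 615.1, 575.7, 649.8 and 626.5 in VEH-HI, against 289.0, 366.0, 223.8, 243.1 and 340.5 in VEH-Sham. Every VEH-HI array lay above every sham array, VEH-Sham 5 included. Cav1 rose by 1.20 (SE 0.16, 95% interval 0.87 to 1.54, 2.30-fold, limma adjusted p = 0.000175), and the difference from VEH-Sham 5 was 0.97. With the array set as a block the same 0.97 had an SE of 0.28 and an unadjusted p of 0.00218, but an adjusted p of 0.34 in limma. It was the only probe set of the 14 whose VEH-HI and sham values did not overlap, against 8.22% of all tested probe sets (3.71% higher and 4.51% lower).

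Icam1 is the endothelial ligand of leukocyte beta-2 integrins. Its intensities were 132.0, 72.24, 80.08, 34.04 and 31.47 in VEH-HI, against 7.404, 6.401, 36.95, 5.069 and 16.98 in VEH-Sham. VEH-Sham 3 lay above VEH-HI 9 and 10, and all other sham arrays lay below the VEH-HI range. Icam1 rose by 1.45 (SE 0.31, 2.74-fold, limma adjusted p = 0.0035), and the difference from VEH-Sham 5 was 1.25. With the block on array set the unadjusted p was 0.0293 and the adjusted p 0.678 in limma. The size depends on the constant added to so dim a signal, at 2.35 with 1 added and 0.73 with 64.

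Vcam1 binds the alpha-4 integrin of lymphocytes and monocytes. Its brightest probe set read 512.5, 448.0, 445.2, 489.7 and 331.5 in VEH-HI, against 272.1, 382.9, 248.1, 212.4 and 478.4 in VEH-Sham. VEH-Sham 5 was again among the injured arrays, 0.78 above the mean of VEH-Sham 1 to 4. The probe set rose by 0.51 (SE 0.16, 1.42-fold, limma adjusted p = 0.0278), and the difference from VEH-Sham 5 was -0.11. The call was lost, with limma adjusted p-values of 0.0596 to 0.0907, without VEH-Sham 1, 3 or 4, without VEH-HI 6 or 9, and with these 2 groups fitted alone. The other Vcam1 probe sets differed by -0.08 (SE 0.10, limma adjusted p = 0.568) and -0.28 (SE 0.15, limma adjusted p = 0.167), so the 3 probe sets of this gene disagree.

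**Figure D2:**
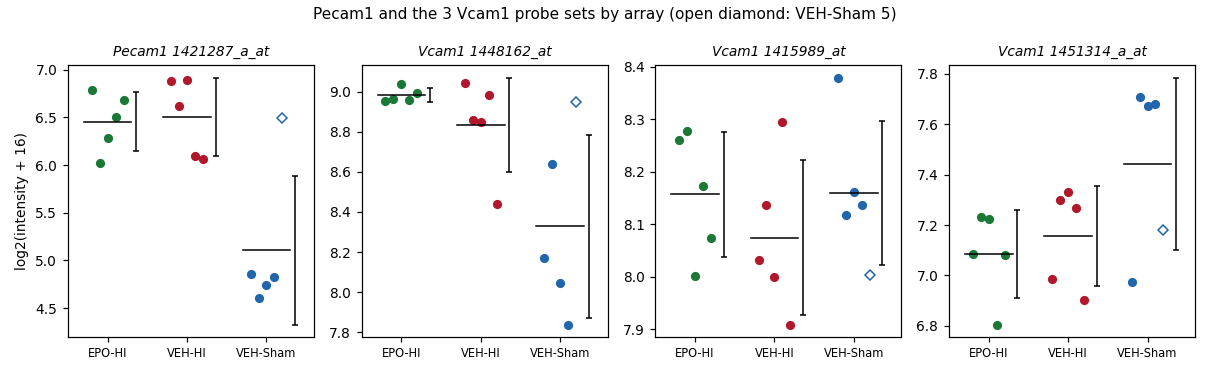
Levels as log2(intensity + 16), with a separate axis for each, of the Pecam1 probe set and the 3 Vcam1 probe sets on each array, in EPO-HI, VEH-HI and VEH-Sham from left to right. Lines mark means, error bars the SD (n = 5) and open diamonds VEH-Sham 5, which exceeded the mean of VEH-Sham 1 to 4 by 1.74 for Pecam1 and 0.78 for the brightest Vcam1 probe set and differed from it by -0.20 and -0.33 for the other Vcam1 probe sets.

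With the block on array set, or with the larger set alone, 0 of the 10 genes passed. That block leaves a single sham array to compare with, and it called 3 of all 27022 probe sets (0.0111%).

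The upstream sequences of Icam1, Cav1 and Cldn5 are shown because Cav1 and Icam1 had the largest differences from VEH-Sham 5 and because Icam1 and Cldn5 varied together over the injured arrays. Each is the 250 bases before the annotated start in RefSeq (GRCm38.p6), at chr9:21015690-21015939 for Icam1, chr6:17306085-17306334 for Cav1 (the first of its 2 windows) and chr16:18776597-18776846 for Cldn5, all on the plus strand. RefSeq windows were matched for 7 of the 10 genes, 9 windows in all. Capitals mark a match to GGAANTTCC, a form of the NF-kappaB Rel site, searched on both strands.
Icam1: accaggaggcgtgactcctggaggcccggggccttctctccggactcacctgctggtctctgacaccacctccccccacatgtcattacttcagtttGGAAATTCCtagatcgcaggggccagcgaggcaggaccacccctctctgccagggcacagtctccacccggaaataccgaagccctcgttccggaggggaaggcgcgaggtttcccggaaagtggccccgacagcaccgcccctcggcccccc
Cav1: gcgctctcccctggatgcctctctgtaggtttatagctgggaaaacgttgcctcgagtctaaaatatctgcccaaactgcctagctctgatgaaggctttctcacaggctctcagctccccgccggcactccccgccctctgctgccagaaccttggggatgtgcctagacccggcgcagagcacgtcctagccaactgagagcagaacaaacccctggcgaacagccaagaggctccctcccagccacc
Cldn5: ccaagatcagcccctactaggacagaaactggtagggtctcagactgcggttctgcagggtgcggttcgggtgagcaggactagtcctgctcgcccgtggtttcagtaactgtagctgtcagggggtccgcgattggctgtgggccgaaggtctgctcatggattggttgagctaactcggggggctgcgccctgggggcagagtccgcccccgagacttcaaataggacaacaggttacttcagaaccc
The Icam1 match, GGAAATTCC, lies 153 to 145 bases before the start, and 1 of the 9 windows held the motif, as did 0.813% of 32851 windows of all genes. The AP-1 letters TGANTCA, also searched on both strands, were in 0 of the 9 windows and in 6.75% of all. Both motifs were chosen after the values were seen, and a match describes the letters only.

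Erythropoietin before hypoxic ischemia gave no called difference in any of the 10 genes. In EPO-HI against VEH-HI, limma called 0 of the 14 probe sets, and 0 had an unadjusted p under 0.05 (smallest 0.242). Over all tested probe sets the percentage called was 0, with 1066 at an unadjusted p under 0.05. The differences ran from -0.15 to 0.15, and the 95% intervals of all 14 spanned 0. Values of the groups overlapped for all 14, and did not for 0.822% of all tested probe sets. The median of the 10 genes was -0.10, beside -0.01 over all tested genes.

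Cav1 read 891.7, 659.4, 516.2, 640.0 and 775.2 in EPO-HI, against the VEH-HI values above. The groups covered much the same range, and the difference was 0.00 (SE 0.16, 95% interval -0.33 to 0.34, limma adjusted p = 1). Cldn5 read 520.8, 476.6, 420.0, 394.1 and 540.2 in EPO-HI, inside the VEH-HI range but for EPO-HI 13 and 14. Its difference was -0.15 (SE 0.12, 95% interval -0.41 to 0.11, limma adjusted p = 1). Icam1 read 60.22, 45.15, 39.65, 42.98 and 104.2 in EPO-HI, all within the VEH-HI range, and its interval was the widest at -0.78 to 0.50. An interval so wide does not show that the groups are alike.

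Vcam1 on its brightest probe set read 480.6, 483.3, 510.8, 482.1 and 494.0 in EPO-HI, a narrower spread than in VEH-HI (SD 0.04 in EPO-HI and 0.24 in VEH-HI on the log2 scale). The means differed by 0.15 (SE 0.16, 95% interval -0.18 to 0.48, limma adjusted p = 1), and the difference in spread was not tested. The VEH-HI spread on that probe set includes VEH-HI 10, the lowest array at 331.5. On the other Vcam1 probe sets the SDs were 0.12 and 0.17 in EPO-HI, against 0.15 and 0.20 in VEH-HI. Pecam1 read 94.52, 49.1, 62.08, 74.46 and 86.68 in EPO-HI, overlapping VEH-HI, with a difference of -0.05 (SE 0.29). In EPO-HI Tjp1 spanned 547.1 to 711.1, Cdh5 25.47 to 59.85, Slco1c1 848.6 to 1116, and the brighter probe sets of Ocln and Abcb1a 58.59 to 123.4 and 51.09 to 99.14, all overlapping VEH-HI. Abcb1a differed by -0.12 and -0.15 on its 2 probe sets, Tjp1 by -0.11, Cdh5 by -0.11, Ocln by -0.09 and 0.03, and Slco1c1 by 0.01, with SEs of 0.10 to 0.22.

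**Figure D3:**
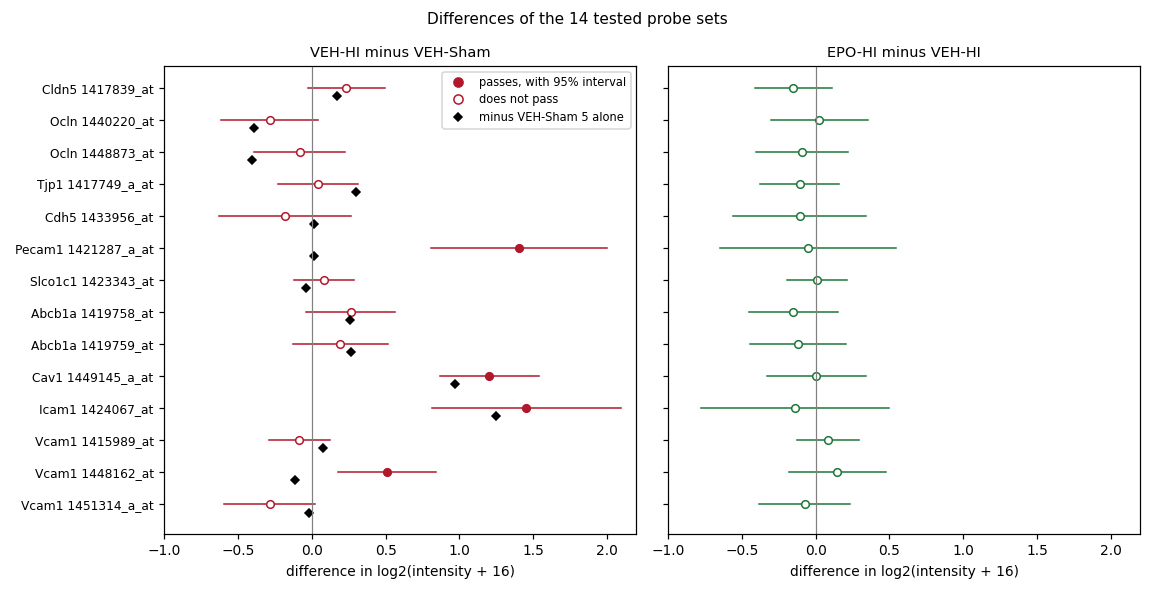
Log2 differences with 95% intervals (limma, n = 5 per group) of the 14 tested probe sets, VEH-HI minus VEH-Sham in the left panel and EPO-HI minus VEH-HI in the right; filled points pass the test, and diamonds give VEH-HI minus VEH-Sham 5 alone. The intervals of Cav1, Icam1, Pecam1 and the brightest Vcam1 probe set exclude 0 in VEH-HI minus VEH-Sham, and all 14 span 0 in EPO-HI minus VEH-HI.

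EPO-HI against VEH-Sham shares its sham arrays with the first comparison, so both sets of values stand side by side and do not support each other. Limma called the same 4 genes higher and 0 lower, with 18.3% of all probe sets called (7.42% higher and 10.9% lower), or 8.86% of genes higher and 9.46% lower. As stated above, Icam1 and Pecam1 averaged below the level needed for testing in VEH-Sham. Icam1 passed that filter through the injured arrays, and Pecam1 through those arrays and VEH-Sham 5. The Vcam1 probe set ranks as brightest through the injured arrays and VEH-Sham 5. The count of 4 is therefore given as a description here too. Cav1 differed by 1.21 in EPO-HI and 1.20 in VEH-HI, Icam1 by 1.31 and 1.45, Pecam1 by 1.35 and 1.40, and the brightest Vcam1 probe set by 0.66 and 0.51, each minus VEH-Sham. The limma adjusted p-values in EPO-HI were 0.000338, 0.00838, 0.00536 and 0.0102 in that order. From VEH-Sham 5 alone the EPO-HI differences were 0.98, 1.11, -0.04 and 0.03. Values of EPO-HI and sham did not overlap for Cav1, Icam1 and the brightest Vcam1 probe set, 3 of the 14 against 7.29% of all tested probe sets (3.16% higher and 4.13% lower). Because Icam1 entered the 14 through its levels on the injured arrays, the count of 3 is likewise a description. With the block on array set 0 of the 10 genes passed, and 0.0148% of all probe sets did. The 95% intervals of 9 of the 14 spanned 0. That of the dimmest Vcam1 probe set lay below 0, at -0.668 to -0.049. This probe set differed by -0.358 (limma adjusted p = 0.0942), and by -0.095 from VEH-Sham 5. The second brightest Vcam1 probe set differed by -0.002, and by 0.154 from VEH-Sham 5, so the 3 probe sets disagree here too.

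Among the injured arrays the genes varied, VEH-HI 6 standing high. It had the highest value of the 10 injured arrays for 6 of the 10 genes (Cldn5, Tjp1, Cdh5, Cav1, Icam1 and Vcam1), and VEH-HI 10 had the lowest for 4 (Tjp1, Cdh5, Icam1 and Vcam1). Among the 10 injured arrays, VEH-HI 6 also had the highest summed intensity of endothelial identity genes (5895) and of microglia and macrophage (4946), astrocyte (14640), meningeal (4023), pericyte (2591) and smooth muscle (596.5) markers, and the lowest of neuron markers (19540). VEH-HI 10 had the highest neuron sum (29730) and the lowest sums of endothelial identity genes (4038) and of astrocyte (11240) and pericyte (1592) markers. The part of these cells in the levels of the 10 genes was not tested.

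Deviations from the group means were correlated over the 10 injured arrays for all 45 pairs of genes, with all 14400 rearrangements of arrays within groups as the permutation test. Of the 45 pairs 32 had a positive r, and the median was 0.304. Cldn5 and Icam1 were the only pair to pass after Benjamini-Hochberg adjustment over the 45, with r = 0.905 (permutation p = 0.000694, adjusted 0.0312). Spearman's rho was 0.879 with an adjusted permutation p of 0.134. Without VEH-HI 6 and 10, the arrays farthest from the median of Cldn5, r was 0.807 (unadjusted permutation p = 0.0167). The 8 arrays left allow 720 rearrangements, with which a single pair cannot pass adjustment over the 45 (smallest adjusted p 0.0625). Tjp1 with Cdh5 (r = 0.848), Pecam1 with Icam1 (0.834) and Cdh5 with Pecam1 (0.831) came next and did not pass.

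**Figure D4:**
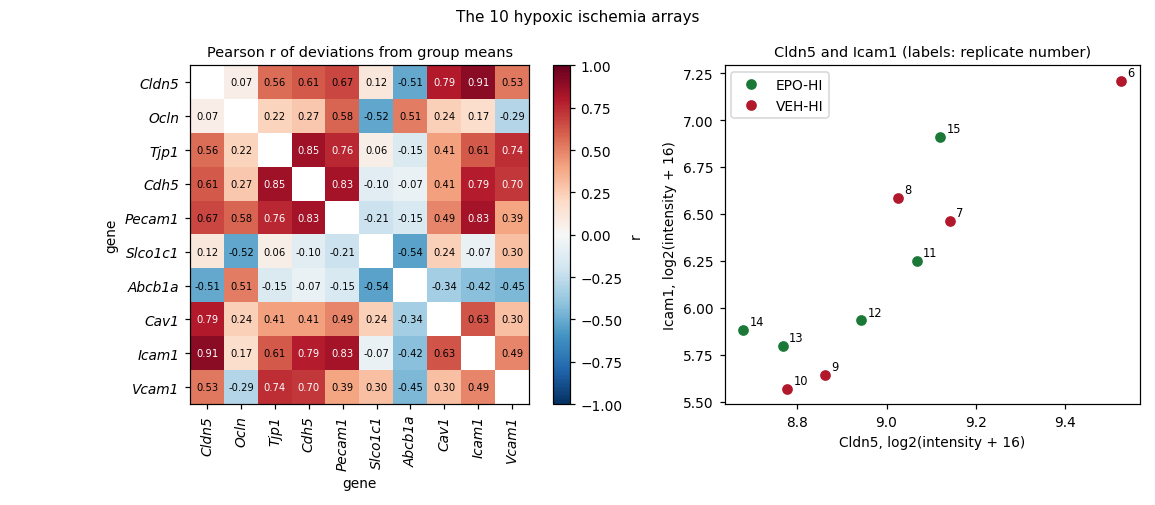
Pearson's r between the 10 genes over the 10 hypoxic ischemia arrays after subtracting group means (colour scale from -1 to 1), and the Cldn5 and Icam1 levels, as log2(intensity + 16), of each EPO-HI and VEH-HI array, labelled by its number. Of the 45 pairs 32 are above 0, and the scatter of Cldn5 against Icam1 (r = 0.905) has VEH-HI 6 at its upper end.

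The genes whose levels followed Cldn5 most closely over these 10 arrays were Capg (r = 0.976), an actin-capping protein, Ramp2 (0.958), the adrenomedullin receptor partner of endothelium, Trim47 (0.955), Fermt3 (0.955), a kindlin of blood cells, and Vwf (0.949), the von Willebrand factor of endothelium. Those most like Icam1 were Serpina3n (0.970), an acute-phase protease inhibitor, Junb (0.969), an AP-1 subunit, Zfp36 (0.967), which destabilises cytokine messages, Clic4 (0.965) and Ezr (0.964). Each r was picked as the highest among all tested genes over 10 arrays and carries no test.

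Other genes of the same structures were counted in 6 lists. With the array set as a block, or in the larger set alone, limma called 0 genes in each of these lists and in each list of other cells' markers, so the calls below rest on all 15 arrays. Among tight junction genes other than the members, 0 of 14 rose and 1 fell in VEH-HI against VEH-Sham in limma, beside 11.9% and 11.5% of all genes. The one that fell was the claudin Cldn15, by 0.60 (limma adjusted p = 0.044), with a difference of 0.10 from VEH-Sham 5. Cgnl1 and Cgn, the cingulins, both differed by -0.37 without passing. The median of the list was -0.16, or -0.01 from VEH-Sham 5.

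Of 10 adherens junction genes 1 rose and 1 fell in VEH-HI against VEH-Sham (10% each), beside 11.9% and 11.5% of all genes. Ctnna1, alpha-catenin, rose by 0.60 (SE 0.12, limma adjusted p = 0.0027), with 0.39 from VEH-Sham 5 and no overlap between the groups. Jup, plakoglobin, fell by 0.60 (limma adjusted p = 0.0327), with -0.14 from VEH-Sham 5.

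Of 24 transporters and their regulators 5 rose and 1 fell (20.8% and 4.17%), beside 11.9% and 11.5% of all genes. Abcg2, a drug efflux pump, rose by 0.67 (SE 0.13, limma adjusted p = 0.00255), and the organic anion transporter Slco1a4 by 0.44 (limma adjusted p = 0.0158), with 0.25 and 0.31 from VEH-Sham 5. Slc2a1, the glucose transporter GLUT1, rose by 0.46 (limma adjusted p = 0.0288), with 0.35 from VEH-Sham 5. Slc6a6, the taurine transporter, rose by 0.49 (limma adjusted p = 0.0132), but differed by -0.05 from VEH-Sham 5. Foxf2, a transcription factor of brain pericytes, fell by 0.80 (SE 0.19, limma adjusted p = 0.00596), with -0.19 from VEH-Sham 5.

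Of 7 caveola and transcytosis genes 2 rose, both partners of Cav1, and 0 fell, beside 11.9% and 11.5% of all genes. Cavin3 rose by 1.03 (SE 0.16, limma adjusted p = 0.000487) and Cav2 by 0.47 (SE 0.11, limma adjusted p = 0.00575), with 0.35 and 0.39 from VEH-Sham 5. Ehd4, a membrane-remodelling ATPase, differed by -0.51 (limma adjusted p = 0.0651) and by -0.04 from VEH-Sham 5, and Cavin1, the caveola coat protein, by 0.29 (limma adjusted p = 0.165). Without VEH-Sham 5 the list had 2 genes called higher and 1 lower. The list's median was 0.21, and 0.25 from VEH-Sham 5.

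Of 10 other leukocyte adhesion genes limma called 0 in either direction, with 1 at an unadjusted p under 0.05. The integrin subunit Itgb2, part of the receptor for Icam1, differed by 0.44 (limma adjusted p = 0.101). Of 23 endothelial identity genes 2 rose and 2 fell (8.7% each), beside 11.9% and 11.5% of all genes. These counts became 4 and 4 without VEH-Sham 5 and 8 and 0 at equal array medians. Clec14a rose by 0.68 (SE 0.16, limma adjusted p = 0.00738) and differed by 0.96 from VEH-Sham 5, with no overlap between groups. Pltp, the phospholipid transfer protein, rose by 0.43, and Palmd and Flt1, a VEGF receptor, fell by 0.57 and 0.52 (limma adjusted p = 0.0351, 0.00633 and 0.0442). From VEH-Sham 5 these 3 differed by 0.12, -0.30 and -0.33. Summed endothelial identity intensity was 4078 to 4948 in EPO-HI, 4038 to 5895 in VEH-HI and 4166 to 4610 in VEH-Sham.

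Between EPO-HI and VEH-HI limma called 0 genes in each of these 6 lists. At an unadjusted p under 0.05 there was 1 of 14 tight junction genes, 0 of 10 adherens junction genes, 1 of 24 transporters and regulators, 0 of 7 caveola genes, 1 of 10 adhesion genes and 1 of 23 identity genes. Cldn15 differed by -0.44, Alcam, an adhesion molecule of the barrier, by 0.29, Adgrf5 by -0.36 and Apcdd1, an inhibitor of Wnt signalling, by -0.21, without passing adjustment.

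**Figure D5:**
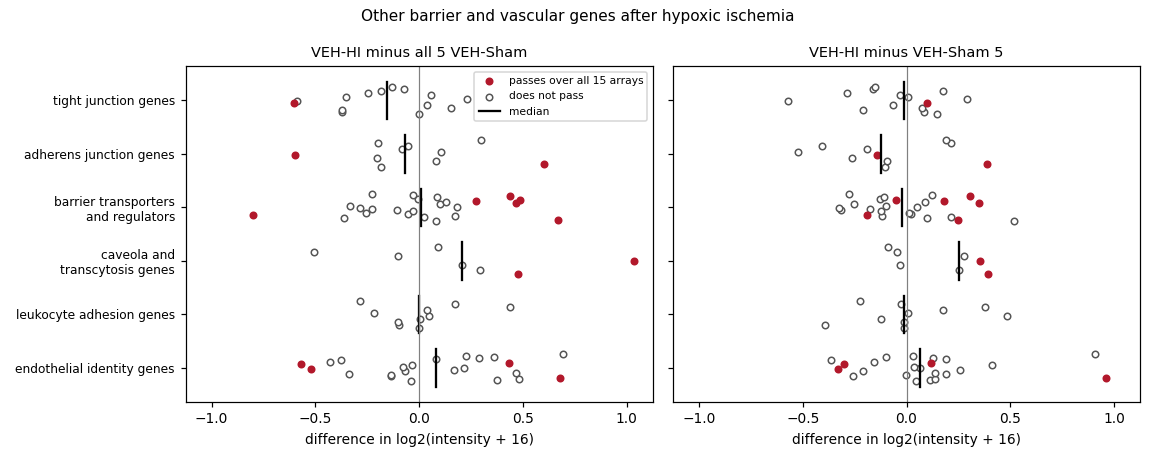
Log2 differences of the other genes in the 6 barrier and vascular lists, VEH-HI minus all 5 VEH-Sham arrays in the left panel and minus VEH-Sham 5 in the right; each point is a gene, filled where it passed over all 15 arrays, and vertical lines mark list medians. The caveola list has its median at 0.21 and 0.25 in the 2 panels, and the tight junction list at -0.16 and -0.01.

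Markers of other cells moved in the same comparison. In VEH-HI against VEH-Sham limma called 7 of 11 microglia and macrophage markers higher and 1 lower (median 0.58, and 0.63 from VEH-Sham 5), and 5 of 10 astrocyte markers higher (median 0.38, but 0.13 from VEH-Sham 5). It called 2 of 6 neutrophil and lymphocyte markers higher (median 0.56, and 0.80 from VEH-Sham 5). These were the neutrophil genes S100a9 and Csf3r. The only lymphocyte gene tested in that list differed by -0.33, and by 0.50 from VEH-Sham 5, without passing. Limma called 4 of 9 meningeal markers higher (median 0.37, but 0.02 from VEH-Sham 5). Of 9 pericyte markers 1 was higher and 1 lower (11.1% each), near the shares over all genes, and 1 of 4 smooth muscle markers was higher. Of 8 choroid plexus and ependymal markers 1 was higher and 1 lower (12.5% each), also near those shares. Of 9 neuron markers 0 were higher and 2 lower (median -0.28, and -0.24 from VEH-Sham 5), with 8 lower after quantile scaling and 0 at equal array medians. Of 4 oligodendrocyte markers 1 was lower (median -0.22, and -0.42 from VEH-Sham 5). Microglia or leukocytes can express Icam1, Pecam1 and Vcam1, and smooth muscle expresses Cav1. Summed intensity of smooth muscle markers was 275.6 to 526.4 in EPO-HI, 446.4 to 596.5 in VEH-HI and 382.1 to 575.1 in VEH-Sham, and that of pericyte markers 1720 to 2096, 1592 to 2591 and 1704 to 1988. Summed microglia and macrophage intensity was 2763 to 3983 in EPO-HI, 3393 to 4946 in VEH-HI and 2408 to 2996 in VEH-Sham, and that of neuron markers 24580 to 28210, 19540 to 29730 and 26590 to 29180. Summed neutrophil and lymphocyte intensity was 175.9 to 936.4 in EPO-HI, 163.5 to 2411 in VEH-HI and 143.8 to 244.7 in VEH-Sham. The part of these cells in the levels of the 10 genes was not tested.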

How the data were processed

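The authors deposited linear intensities, 1 per probe set and array of 15 arrays. The trimmed mean of VEH-Sham 1 was 150.0 (2% trimmed at each end), and that of the other arrays is not given here. The sources used here give neither the summary software nor a build. Control probe sets (64 of 45101) were left out, and 34945 probe sets had 1 symbol. Values were log2(intensity + 16). The 60% with the highest mean over all arrays (27022, mean log2 of at least 5.46) entered 1 limma 3.58.1 fit with 3 group means (R 4.3.3, eBayes with trend, two-sided, Benjamini-Hochberg over all, threshold 0.05). The fit was tested on simulated data without array sets, so that test cannot show how it behaves where arrays fall into sets. A gene is its brightest tested probe set. Named genes were every member, up to 4 per list by smallest p in VEH-HI against VEH-Sham and up to 2 in EPO-HI against VEH-HI, and the 5 most like Cldn5 and Icam1. The members and lists were chosen with earlier results of these data known. Of 189 listed genes 158 were tested, and the others are not analysed here. Alternatives changed the constant, scaling, filter, fit, array set and arrays included. Python 3.11.15 with scipy 1.17.1 and matplotlib 3.10.9 was used.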

Additional observations from a re-analysis of the deposited data

Results flagged for a closer look

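In 45 groups of 5 arrays, 1 array stood apart by a Dixon gap ratio above 0.71 in 4 groups, where chance gives about 1 group in 20. Abcb1a (brighter probe set) was highest on VEH-HI 10, at 108.1 with a ratio of 0.939. Cav1 was highest on VEH-HI 6, at 1026 with a ratio of 0.792. Cldn5 was lowest on VEH-Sham 3, at 370.6 with a ratio of 0.964. Pecam1 was highest on VEH-Sham 5, at 74.1 with a ratio of 0.869.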

How the results depend on the processing

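No paired analysis was possible because replicate numbers run through the series and no 2 groups share one. In VEH-HI against VEH-Sham, limma called 6174 probe sets, against 3 with the array set as a block, 7 in the larger set alone and 3800 to 9616 leaving out 1 array (9616 without VEH-Sham 5, and 4055, 3880 and 3800 without VEH-Sham 1, 3 and 4). In EPO-HI against VEH-Sham it called 4939, against 4 with the block, 5 in the larger set and 2452 to 9066 leaving out 1 array (9066 without VEH-Sham 5, 2770, 3045, 2671 and 2452 without VEH-Sham 1 to 4, and 3244 without EPO-HI 11), with 8603 at equal array medians and 3008 in the brightest 40%. In EPO-HI against VEH-HI it called 0 to 4, the 4 without VEH-HI 8. Of the calls 43.1% and 40.6% were higher in VEH-HI and EPO-HI against sham, 85.6% and 88.7% at equal array medians, 53.4% and 53.3% after quantile scaling. Members called higher were 4 in both, 0 with the block or larger set, 6 and 5 at equal medians, and 2 in the brightest 40%, where 7 were tested. Of the 45 correlated pairs 1 passed by r and 0 by rho. Without the 2 farthest arrays 0 passed, but 8 arrays allow only 576 to 720 rearrangements, with which a single pair cannot pass, so this 0 says nothing about stability. Brackets give the probe set where a gene has several, and the cause of these sign changes was not tested. After quantile scaling the differences that changed sign were Cav1 -0.01 and Slco1c1 -0.003 (EPO-HI minus VEH-HI), Ocln (dimmer) 0.005 and Slco1c1 -0.009 (EPO-HI minus VEH-Sham), and Cdh5 0.035, Ocln (brighter) 0.061, Slco1c1 -0.006 and Tjp1 -0.038 (VEH-HI minus VEH-Sham). At equal array medians they were Ocln 0.014 (dimmer) and 0.099 (brighter), Tjp1 0.207 and Vcam1 (second brightest) 0.273 in EPO-HI minus VEH-Sham, and Cdh5 0.062, Ocln (brighter) 0.16 and Vcam1 (second brightest) 0.159 in VEH-HI minus VEH-Sham. With the block, and equally in the larger set, they were Pecam1 -0.037, Slco1c1 -0.032, Tjp1 0.187 and Vcam1 (second brightest) 0.154 in EPO-HI minus VEH-Sham, and Cdh5 0.016, Slco1c1 -0.043, Vcam1 0.072 (second brightest) and -0.114 (brightest) in VEH-HI minus VEH-Sham. Leaving out 1 array gave, for EPO-HI minus VEH-HI, Cav1 -0.088 to 0.149, Cdh5 -0.277 to 0.042, Icam1 -0.328 to 0.089, Ocln -0.067 to 0.09 (dimmer) and -0.199 to 0.026 (brighter), Pecam1 -0.164 to 0.056 and Slco1c1 -0.057 to 0.051. It gave Abcb1a (brighter) -0.018 to 0.177 and Vcam1 (second brightest) -0.041 to 0.053 for EPO-HI minus VEH-Sham, and Tjp1 -0.06 to 0.155 for VEH-HI minus VEH-Sham. Of all single probe set values under the 25 alternatives, 952 kept direction and side of the threshold and 58 changed sign. With the sign kept, 18 lost the call and 7 gained it. Some of the 58 also lost the call, for Pecam1 in EPO-HI minus VEH-Sham and the brightest Vcam1 probe set in VEH-HI minus VEH-Sham. The gains include Slco1c1 in EPO-HI minus VEH-Sham at equal array medians (0.367, limma adjusted p = 0.0389).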
